A study of Homo sapiens with 12 samples.

Results

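The 10 genes of the PIWI and piRNA pathway described here, PIWIL2, PIWIL4, TDRD1, TDRD3, TDRD7, TDRD9, TDRKH, HENMT1, PLD6 and MOV10L1, were chosen by name among the 60660 genes listed for each library. mRNA was sequenced from LNCaP, a human PCa line from a lymph node metastasis that responds to androgen, and from 22Rv1, a human PCa line from a xenograft that relapsed after castration. Each line was transfected with a synthetic copy of the piRNA (piR-4447944 mimic) or with a control RNA (NC-mimic), and the medium of all 4 groups held 10% CS-FBS, serum stripped of most androgen with charcoal. There were 3 libraries in each group and 12 in all, of 12161091 to 22179601 expected counts each. The labels do not say whether the 3 came from separate cultures. The paper speaks of triplicates and, beside its plot of the sequencing, of independent experiments, without saying how the replicates of the sequencing were made. P-values here measure the spread between these libraries, which may be technical. Each line comes from a single cancer. The values are mRNA levels, and in bulk RNA fewer cells that transcribe a gene and less RNA of it per cell cannot be told apart.

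piRNAs are small RNAs that guide PIWI proteins, the germline branch of the Argonaute family, to transposons and other transcripts. Their precursors are bound by the helicase MOV10L1, cut at the surface of mitochondria by the nuclease PLD6, trimmed on a PIWI protein with the help of the scaffold TDRKH, and methylated at the 3′ end by HENMT1. Tudor domain proteins (TDRD) bind methylated arginines of PIWI proteins and hold the parts together. The pathway is best known from the testis, and most somatic tissues transcribe little of it.

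The 2 replicate 3 libraries of 22Rv1 stood apart from the others of that line. The root mean square difference of log2 values between replicates was 0.68 and 0.699 for replicates 1 and 2 of 22Rv1, and 0.967 to 1.14 for pairs with replicate 3, against 0.468 to 0.557 in LNCaP. Values without them are given where a call or a value turned on them. All 8 luminal prostate markers, among them KLK3, the PSA gene, KLK2 and KRT8, had a mean of at least 1 TPM (a share of all transcripts, scaled for gene length) in every group. With NC-mimic the mean of KLK3 was 2040 TPM in LNCaP and 49.6 TPM in 22Rv1, and that of KLK2 443 and 107 TPM. In each arm 4 of the 8 were called lower and 2 higher in 22Rv1 (adjusted p under 0.05, edgeR's quasi-likelihood test). Of all genes tested, 27.5% were lower and 30.9% higher with NC-mimic, and 24.2% and 28.2% with piR-4447944 mimic. Of the 10 germ cell markers, DAZL, STRA8, PRM1 and TNP1 were listed at 0 in every library. SYCP3 and ACRV1 had a mean of at least 1 TPM in every group, and BOLL in those of 22Rv1 alone.

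The sequence before the start site is shown for TDRD9 and MOV10L1, which were far higher in 22Rv1, and for TDRD1, which had reads in LNCaP alone. The sequences come from RefSeq (GRCh38.p14), which gave a promoter for 7 of the 10 genes, and run 5′ to 3′ on the plus strand up to the start of the gene, with CG dinucleotides, the sites of DNA methylation, in capitals. TDRD9 is shown from chr14:103928206-103928455, MOV10L1 from chr22:50089756-50090005, and TDRD1 from chr10:114179037-114179269.
TDRD9: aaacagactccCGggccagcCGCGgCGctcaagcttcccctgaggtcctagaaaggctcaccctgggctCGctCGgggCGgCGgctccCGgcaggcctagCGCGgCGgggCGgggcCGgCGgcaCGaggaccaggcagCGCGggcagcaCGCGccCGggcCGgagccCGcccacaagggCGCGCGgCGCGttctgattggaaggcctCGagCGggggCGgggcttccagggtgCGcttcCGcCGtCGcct
MOV10L1: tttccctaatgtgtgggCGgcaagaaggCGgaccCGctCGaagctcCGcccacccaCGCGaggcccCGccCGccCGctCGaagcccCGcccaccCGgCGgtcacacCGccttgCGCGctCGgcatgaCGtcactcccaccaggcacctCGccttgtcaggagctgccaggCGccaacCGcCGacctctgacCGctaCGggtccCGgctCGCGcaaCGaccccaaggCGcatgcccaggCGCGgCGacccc
TDRD1: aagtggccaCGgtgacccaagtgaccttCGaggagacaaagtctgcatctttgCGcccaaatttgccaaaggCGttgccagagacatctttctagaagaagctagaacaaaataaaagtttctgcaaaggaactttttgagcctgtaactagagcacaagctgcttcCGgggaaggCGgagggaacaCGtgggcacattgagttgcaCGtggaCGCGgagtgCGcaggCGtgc
In these stretches there were 35 CG in the 250 bases of TDRD9, 33 in the 250 bases of MOV10L1, and 12 in the 233 bases of TDRD1. In the whole window of 300 bases, 250 before and 50 after the start, TDRD9 had 41 CG and MOV10L1 44, which was more than in 93.3% and 95.8% of the 35116 promoters of the table. TDRD1 had 17 and 21 CG at its 2 starts, and the median promoter had 14. The other windows held 30 and 23 CG for TDRD3, 50 for TDRD7, 22 and 21 for TDRKH, and 27 and 44 for HENMT1. Whether the CG counts bear on the differences between the lines was not tested. The MYB core letters AACTG, searched on both strands, were found 1 time in the TDRD9 window and 0 times in those of MOV10L1 and TDRD1, and are present in 39.7% of all promoters. It was also found 1 time in 1 of the 2 windows of TDRD3, in 1 of the 2 of HENMT1, and in both of TDRKH. AACGG was found 1 time in each of the 2 windows of HENMT1 and 0 times in the others, and is present in 19.7% of all promoters. Methylation was not measured in these libraries.

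In LNCaP, 4 of the 10 genes had a mean of at least 1 TPM with either mimic, TDRKH, TDRD3, HENMT1 and TDRD7. In 22Rv1 these 4 were joined by PLD6, TDRD9 and MOV10L1, which made 7 of 10 with either mimic. Of all 60660 genes listed, 25.7% reached that level in LNCaP with NC-mimic and 26.9% in 22Rv1 with NC-mimic. PIWIL2, PIWIL4 and TDRD1 stayed under 1 TPM in each of the 12 libraries. The summed TPM of the 10 genes was 45.3, 45.2 and 44.3 in LNCaP with NC-mimic, and 101, 86.2 and 84.7 in 22Rv1 with NC-mimic. With piR-4447944 mimic it was 42.3 to 43.2 in LNCaP and 89.9 to 101 in 22Rv1, so that the lines did not overlap. In LNCaP the order of the mean TPM with NC-mimic was TDRKH, TDRD3, HENMT1 and TDRD7, followed after a gap by PLD6, MOV10L1, PIWIL2, TDRD1, TDRD9 and PIWIL4. In 22Rv1 HENMT1 led, TDRD3, TDRKH and PLD6 followed with overlapping libraries, and TDRD7, TDRD9 and MOV10L1 came next.

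**Figure D1:**
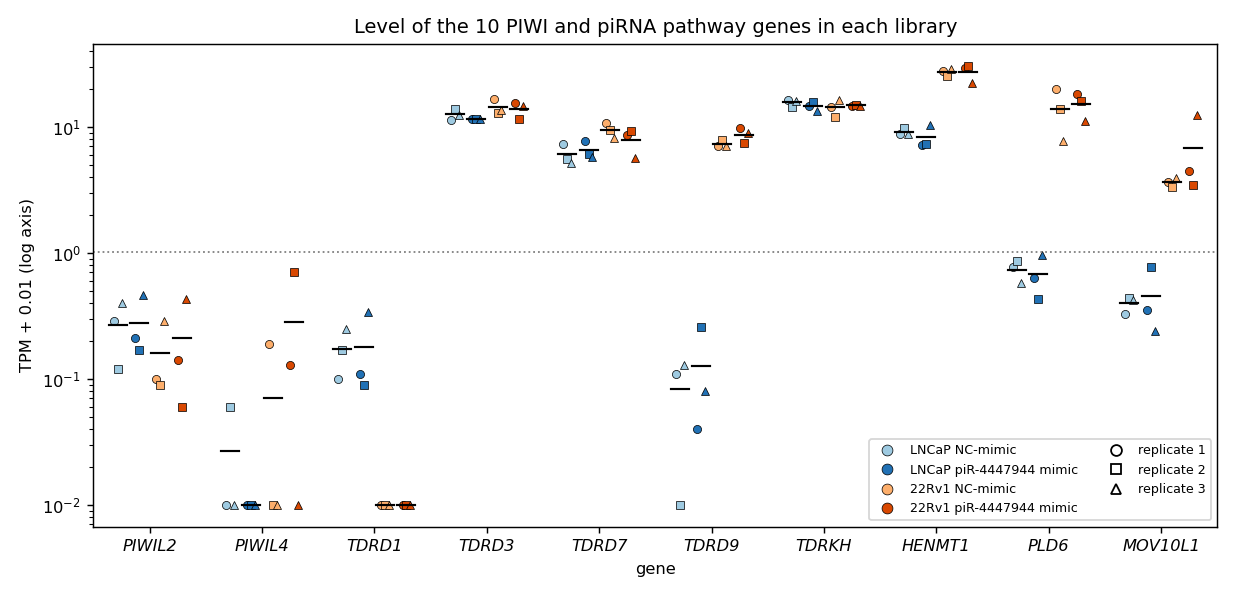
TPM + 0.01 (log axis) of the 10 genes in each of the 12 libraries, with 1 point per library, marked by replicate, a bar at the mean of the 3 libraries of a group, and a dotted line at 1 TPM. TDRD9, PLD6 and MOV10L1 lie under the line in the 6 LNCaP libraries and above it in the 6 libraries of 22Rv1, whereas PIWIL2, PIWIL4 and TDRD1 lie under it in all 12.

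PIWIL2 and PIWIL4 encode the PIWI proteins of the list. In germ cells PIWIL2 binds piRNAs in the cytoplasm and cuts complementary RNA, and PIWIL4 directs silencing in the nucleus. In PCa cells the paper detected both proteins by western blot, mainly in the cytoplasm. By immunoprecipitation in LNCaP and 22Rv1 it found piR-4447944 with PIWIL2 and not with PIWIL4. The mRNA levels given here do not measure these proteins. PIWIL2 (ENSG00000197181.12, chromosome 8 of hg38 from 22275316 to 22357568, plus strand) was at 0.28, 0.11 and 0.39 TPM in LNCaP with NC-mimic and at 0.20, 0.16 and 0.45 TPM with piR-4447944 mimic. In 22Rv1 it was at 0.09, 0.08 and 0.28 TPM with NC-mimic and at 0.13, 0.05 and 0.42 TPM with piR-4447944 mimic. The 4 groups overlapped on this scale, and 19650 of the 60660 genes had a higher mean in LNCaP with NC-mimic. These levels rest on few reads. The counts in LNCaP were 18, 8 and 22 with NC-mimic and 11, 7 and 14 with piR-4447944 mimic, and those in 22Rv1 were 7, 1 and 4 with NC-mimic and 7, 3 and 19 with piR-4447944 mimic. The 19 counts lay in the replicate 3 library of 22Rv1, which stood apart.

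With NC-mimic, PIWIL2 differed between the lines on the scale of counts and overlapped on that of TPM. As CPM, which is the count relative to the total of the library, the LNCaP libraries lay at 0.405 to 1.34 and those of 22Rv1 at 0.0639 to 0.329, without overlap. An exact two-sided permutation test of these CPM gave p = 0.1, the smallest that 3 against 3 libraries allow, and that of the TPM gave p = 0.3. Over the pooled counts, 48 in LNCaP and 12 in 22Rv1, LNCaP was 3.6 times as high (exact 95% interval 1.88 to 7.44, which covers counting error only). PIWIL2 did not pass the low-count filter in this comparison. In the fit without the filter its log2 fold change was -1.92 with an adjusted p of 0.0916 by edgeR's quasi-likelihood test (Benjamini-Hochberg). Without 22Rv1 NC-mimic replicate 3 it passed the filter and had -2.09 with an adjusted p of 0.0402 by the same test. It passed there through LNCaP libraries alone, as 0 libraries of 22Rv1 reached the level the filter asks for. It could thus be called only as lower in 22Rv1. The effective length that RSEM gave PIWIL2, by which TPM are scaled, was 987 and 1426 bases in NC-mimic replicates 2 and 3 of 22Rv1 and 4560 bases in replicate 1, against 4368 to 4845 bases in LNCaP. With piR-4447944 mimic, where it was tested, PIWIL2 had a log2 fold change of -0.08 (95% interval -1.84 to 1.67, adjusted p = 0.932 by the same test), and of -1.05 with an adjusted p of 0.227 without 22Rv1 replicate 3.

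PIWIL4 (ENSG00000134627.12, chromosome 11 from 94543840 to 94621421, plus strand) was listed at 0 in 8 of the 12 libraries. In LNCaP it had 2.09 expected counts in replicate 2 with NC-mimic and 0 in the other 5 libraries. In 22Rv1 it had 1 count in replicate 1 with NC-mimic, and 4, 6 and 0 counts with piR-4447944 mimic. The 0.70 TPM of the library with 6 counts, its highest value, was scaled by an effective length of 630 bases, against 2863 bases in the library with 4 counts and 0.12 TPM. PIWIL4 passed the low-count filter in no comparison. Its exons share 602 bases with those of FUT4 on the same strand, which had 173 to 214 counts per group, so that single reads of PIWIL4 are uncertain. They also share 489 bases with PIWIL4-AS1 on the other strand. PIWIL4-AS1 had 5 counts in 22Rv1 with piR-4447944 mimic and, rounded, 0 in each other group. The part of shared reads in the PIWIL4 counts was not tested. The other PIWI genes, PIWIL1 and PIWIL3, were listed at 0 in all 12 libraries, and are named here after their values were seen.

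The 4 Argonaute genes (AGO1 to AGO4), the relatives that carry miRNAs, gave the scale. Their summed TPM was 86.4, 82.1 and 83 in LNCaP with NC-mimic, where the sum of PIWIL1 to PIWIL4 was 0.28, 0.16 and 0.39 TPM. In 22Rv1 with NC-mimic the Argonaute sum was 42.1 to 51.6 TPM and the PIWI sum 0.08 to 0.28 TPM. The Argonaute sum was thus 213 to 513 times the PIWI sum in LNCaP with NC-mimic, 150 to 645 times in 22Rv1 with NC-mimic, 157 to 461 times in LNCaP with piR-4447944 mimic and 89.7 to 221 times in 22Rv1 with piR-4447944 mimic. These ranges overlapped between the lines with either mimic. The 645 rests on a library with 1 PIWIL2 count, and the 89.7 on the library where PIWIL4 was at 0.70 TPM. The effective length of AGO3 with NC-mimic was 4606 to 4876 bases in LNCaP and 10883 to 15053 bases in 22Rv1. Its mean TPM was 14.3 and 5.94, whereas its pooled CPM was 51.6 and 63.5. By counts the log2 fold changes of AGO1 to AGO4 between the lines with NC-mimic were -0.27, -0.6, 0.27 and -0.03 (edgeR). All 9 genes of Argonaute proteins and miRNA processing had a mean of at least 1 TPM in every group. With NC-mimic 4 of the 9 were called lower and 1 higher in 22Rv1, beside 27.5% and 30.9% of all genes tested. With piR-4447944 mimic 1 was called lower and 2 higher, beside 24.2% and 28.2%.

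Of the Tudor genes, TDRD1 was at most at 0.33 TPM in LNCaP and at 0 in 22Rv1, and TDRD9 was near 0 in LNCaP alone. TDRKH and TDRD3 did not pass the test between the lines, and TDRD7 was called with NC-mimic alone. TDRD1 binds PIWIL2 in germ cells. TDRD1 (ENSG00000095627.9, chromosome 10 from 114179270 to 114232666, plus strand) was at 0.09, 0.16 and 0.24 TPM in LNCaP with NC-mimic and at 0.10, 0.08 and 0.33 TPM with piR-4447944 mimic, from 5, 9 and 13 and from 4, 4 and 17 counts. In 22Rv1 it had 0 counts in all 6 libraries. Hence the lines did not overlap, with p = 0.1 in each arm (exact two-sided permutation test of CPM), the smallest the design allows. Set against 3 counts over the 22Rv1 libraries, the limit that a count of 0 allows, TDRD1 was at least 8.09-fold lower in 22Rv1 with NC-mimic and at least 8.18-fold lower with piR-4447944 mimic, where the limit covers counting error only. With piR-4447944 mimic 17 of the 25 counts lay in LNCaP replicate 3, without which the limit was 4.06-fold. It was 5.11-fold without 22Rv1 replicate 2 there, and 4.5-fold without 22Rv1 replicate 1 with NC-mimic, as fewer libraries then stood behind the count of 0. TDRD1 did not pass the low-count filter in either arm. Without the filter its adjusted p was 0.00814 in the NC-mimic arm and 0.0271 in the other by edgeR's quasi-likelihood test (Benjamini-Hochberg), and on log2(TPM + 1) it was 0.0536 and 0.158 by limma.

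TDRD9, a helicase that works with the nuclear PIWI protein in transposon silencing, was higher in 22Rv1. In LNCaP it was about as low as TDRD1. TDRD9 (ENSG00000156414.19, chromosome 14 from 103928456 to 104052667, plus strand) was at 0.10, 0 and 0.12 TPM in LNCaP with NC-mimic and at 0.03, 0.25 and 0.07 TPM with piR-4447944 mimic. In 22Rv1 it was at 7.09, 7.83 and 7.07 TPM with NC-mimic and at 9.74, 7.40 and 8.89 TPM with piR-4447944 mimic. The highest LNCaP library thus lay below the lowest of 22Rv1 by a wide margin, with 0 to 10 counts against 267 to 468. The log2 fold change was 7.46 (standard error 0.75, adjusted p = 2.21e-05) with NC-mimic and 6.52 (standard error 0.56, adjusted p = 0.000125) with piR-4447944 mimic by edgeR's quasi-likelihood test (Benjamini-Hochberg, all genes). As ratios of pooled counts these were 191-fold (exact 95% interval 87.4 to 521, counting error only) and 93.7-fold (55.6 to 172). They rest on few LNCaP counts, of which 5 of 6 lay in replicate 3 with NC-mimic and 10 of 14 in replicate 2 with piR-4447944 mimic. Without LNCaP replicate 3 the log2 fold change with NC-mimic was 9.27 and the ratio 807 (144 to 31900), and without LNCaP replicate 2 they were 6.85 and 123 (56.4 to 336). In the piR-4447944 mimic arm they were 7.68 and 218 (84.8 to 800) without LNCaP replicate 2. TDRD9 was called each time.

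TDRKH, which sits on mitochondria and helps the trimming of piRNA ends, was alike in the lines. TDRKH (ENSG00000182134.16, chromosome 1 from 151770107 to 151791416, minus strand) was at 16.3, 14.4 and 16.2 TPM in LNCaP and at 14.5, 12 and 16.4 TPM in 22Rv1 with NC-mimic, and at 13.4 to 15.9 TPM and 14.7 to 14.9 TPM with piR-4447944 mimic. Its log2 fold change between the lines was 0.02 (95% interval -0.40 to 0.44) with NC-mimic and -0.07 (95% interval -0.37 to 0.23) with piR-4447944 mimic, and its sign turned with the scaling. Its exons share 607 bases with TDRKH-AS1 and 86 bases with OAZ3, both on the other strand, and the sources do not state whether the counting used strand. These had 50 to 87 and 187 to 270 counts per group, against 1130 to 1377 for TDRKH.

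TDRD3, a reader of methylated arginine that is not confined to germ cells, was at 11.3, 13.9 and 12.4 TPM in LNCaP and at 16.8, 12.8 and 13.6 TPM in 22Rv1 with NC-mimic. With piR-4447944 mimic it was at 11.5 to 11.6 TPM in LNCaP and at 11.6 to 15.6 TPM in 22Rv1. TDRD3 (ENSG00000083544.16, chromosome 13 from 60396457 to 60573878, plus strand) had log2 fold changes of 0.23 (95% interval -0.09 to 0.55) and 0.25 (95% interval -0.12 to 0.62) between the lines, which did not pass the test (adjusted p = 0.188 and 0.221, edgeR's quasi-likelihood test). The intervals of TDRKH and TDRD3 thus leave room for differences of up to 0.62 on the log2 scale.

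TDRD7, a component of RNA granules in germ cells and in the lens, was at 7.37, 5.55 and 5.19 TPM in LNCaP and at 10.7, 9.48 and 8.13 TPM in 22Rv1 with NC-mimic. TDRD7 (ENSG00000196116.8, chromosome 9 from 97412096 to 97496125, plus strand) was higher in 22Rv1 by 0.68 on the log2 scale (standard error 0.16, adjusted p = 0.00626, edgeR's quasi-likelihood test). With piR-4447944 mimic it was at 7.74, 6.07 and 5.79 TPM in LNCaP and at 8.57, 9.26 and 5.64 TPM in 22Rv1, so that replicate 3 of 22Rv1 lay below all 3 LNCaP libraries and the other 2 above them. There the log2 fold change was 0.41 (standard error 0.22, adjusted p = 0.164), and without that library it was 0.60 with an adjusted p of 0.00266 by the same test.

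The 3 enzymes of piRNA biogenesis, the nuclease PLD6, the helicase MOV10L1 and the methyltransferase HENMT1, were higher in 22Rv1. PLD6 (ENSG00000179598.6, chromosome 17 from 17200995 to 17206333, minus strand) was at 0.76, 0.85 and 0.57 TPM in LNCaP with NC-mimic and at 0.62, 0.42 and 0.96 TPM with piR-4447944 mimic. In 22Rv1 it was at 20.03, 13.8 and 7.78 TPM with NC-mimic and at 18.2, 16.1 and 11.1 TPM with piR-4447944 mimic. Replicate 3 was the lowest of both 22Rv1 groups, and still far above LNCaP. The log2 fold change was 4.29 (standard error 0.36, adjusted p = 4.31e-05) with NC-mimic and 4.49 (standard error 0.35, adjusted p = 0.000134) with piR-4447944 mimic by edgeR's quasi-likelihood test, which are 19.5-fold and 22.5-fold. PLD6 shares 450 bases of exon with ENSG00000264187, a gene on the same strand that had 26 and 29 counts in the LNCaP groups and 0 in those of 22Rv1. PLD6 itself had 71 and 58 counts in the LNCaP groups and 1373 and 1287 in those of 22Rv1. It also shares 176 bases with MPRIP on the other strand, which had 8519 to 15469 counts per group and a lower mean TPM in 22Rv1. The part of shared reads in the difference was not tested.

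MOV10L1 (ENSG00000073146.16, chromosome 22 from 50090006 to 50161690, plus strand) was at 0.32, 0.43 and 0.41 TPM in LNCaP with NC-mimic and at 0.34, 0.76 and 0.23 TPM with piR-4447944 mimic. In 22Rv1 it was at 3.65, 3.35 and 3.89 TPM with NC-mimic. With piR-4447944 mimic it was at 4.45, 3.47 and 12.4 TPM, where the high value, from 274 counts against 69 and 84, was that of replicate 3. The lines did not overlap in either arm. The log2 fold change was 3.33 (standard error 0.38, adjusted p = 0.000201) with NC-mimic and 3.95 (standard error 0.73, adjusted p = 0.00453) with piR-4447944 mimic by edgeR's quasi-likelihood test. Without 22Rv1 replicate 3 it was 3.14 (adjusted p = 2.61e-05) and 3.01 (adjusted p = 0.000165), so that much of the larger value with piR-4447944 mimic lay in that library. Without LNCaP replicate 2 it was 4.55 with piR-4447944 mimic.

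HENMT1 (ENSG00000162639.16, chromosome 1 from 108648290 to 108661526, minus strand) was transcribed in both lines. It was at 8.71, 9.80 and 8.81 TPM in LNCaP and at 27.5, 25.4 and 29.0 TPM in 22Rv1 with NC-mimic, and at 7.23, 7.30 and 10.4 TPM and at 29.4, 30.5 and 22.2 TPM with piR-4447944 mimic. All 6 libraries of 22Rv1 lay above all 6 of LNCaP. The log2 fold change was 1.72 (standard error 0.14, adjusted p = 3.33e-05) with NC-mimic and 1.74 (standard error 0.22, adjusted p = 0.000851) with piR-4447944 mimic by edgeR's quasi-likelihood test, or 3.3-fold and 3.33-fold. In 22Rv1 with NC-mimic, 91.4% of all genes listed had a lower mean TPM than HENMT1. It made up 30.3% of the summed TPM of the 10 genes there, against 20.3% in LNCaP, where TDRKH had the highest share at 34.8%.

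The contrast of the lines asked how much of the pathway each transcribes, and was made in separate libraries for each mimic. With NC-mimic, 7 of the 10 genes passed the low-count filter, of which 5 were higher in 22Rv1 (TDRD7, TDRD9, HENMT1, PLD6 and MOV10L1), 0 were lower and 2 did not pass the test. Among the 17497 genes tested, 30.9% were higher and 27.5% lower in 22Rv1 at the same threshold, an adjusted p under 0.05 by edgeR's quasi-likelihood test. With piR-4447944 mimic, 8 passed the filter and 4 were higher (the same genes without TDRD7), and 0 were lower, where 28.2% of 17283 genes were higher and 24.2% lower. The lines thus differed at most of the genes tested, and a difference of a single gene was common. The sizes lay beside a median absolute log2 fold change over all genes of 0.707 in the NC-mimic arm and 0.688 in the piR-4447944 mimic arm, which TDRD9, PLD6, MOV10L1 and HENMT1 exceeded in both arms and TDRD7 in neither. TDRD9 and MOV10L1 passed the filter through their 22Rv1 libraries alone, as they failed it among the LNCaP libraries, and so could pass only with a higher value in 22Rv1.

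**Figure D2:**
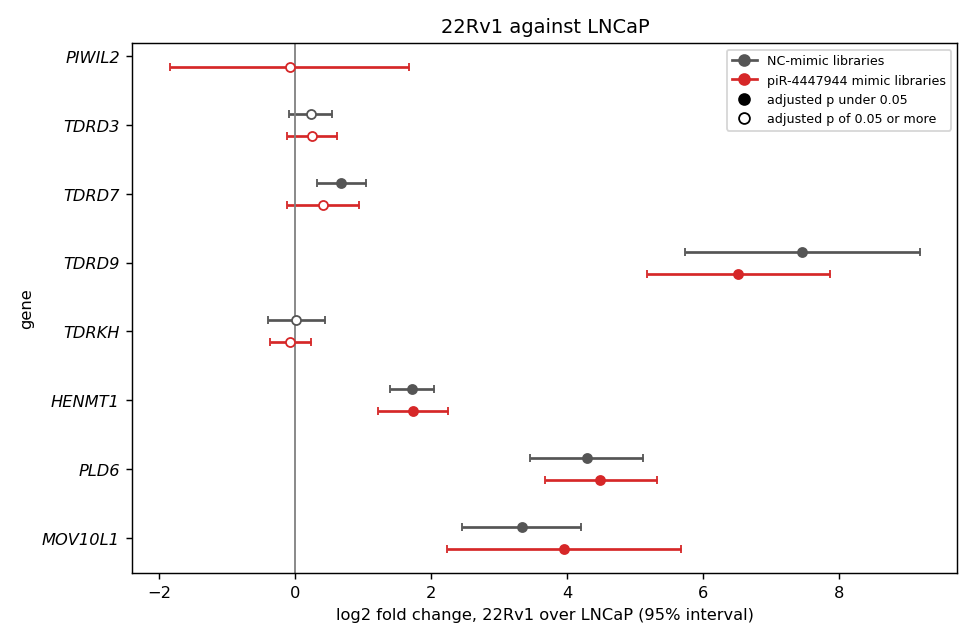
Log2 fold change of 22Rv1 over LNCaP with its 95% interval (x axis) for the genes (y axis) that passed the low-count filter, in the NC-mimic and the piR-4447944 mimic libraries, where filled points have an adjusted p under 0.05. TDRD9, PLD6, MOV10L1 and HENMT1 lie to the right of 0 in both arms, TDRD7 in the NC-mimic arm alone is filled, and TDRKH and TDRD3 span 0.

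Of 32 other genes of the pathway, 18 passed the filter in each arm. With NC-mimic, 9 of these were higher and 2 lower in 22Rv1, beside 30.9% and 27.5% of all genes tested, and with piR-4447944 mimic 8 were higher and 5 lower, beside 28.2% and 24.2%. With 1 library left out, 8 to 9 were higher and 2 lower with NC-mimic, and 7 to 10 were higher and 2 to 6 lower with piR-4447944 mimic, where 2 were lower without any 1 LNCaP library or 22Rv1 replicate 1, 3 without 22Rv1 replicate 2 and 6 without 22Rv1 replicate 3. Among them 7 genes were higher in both arms, TDRD5, TDRD6, STK31, MAEL, GPAT2, SPOCD1 and TEX15, and 2 were lower in both, ASZ1 and AKAP1. TDRD5, STK31, MAEL, GPAT2 and SPOCD1 had 0 LNCaP libraries at the level the filter asks for and 3 of 22Rv1, in both arms, and so could be called only as higher in 22Rv1. BTBD18 also had 0 and 3 in both arms. With piR-4447944 mimic the reverse, 3 and 0, held for ASZ1 and KIF17. In that arm TDRD6 had 1 and TEX15 had 2 LNCaP libraries at that level, against 3 of 22Rv1. They thus passed there through their 22Rv1 libraries, while with NC-mimic both had 3 and 3. DNMT3B and MYBL1 were higher in the NC-mimic arm alone, BTBD18 was higher and KIF17, PRMT5 and TCFL5 were lower in the piR-4447944 mimic arm alone. The call of DNMT3B was lost without LNCaP replicate 1 or 2 or 22Rv1 replicate 2, that of BTBD18 without any library but 22Rv1 replicates 1 and 3, those of KIF17 and TCFL5 without any but 22Rv1 replicate 3, and that of PRMT5 without any LNCaP library or 22Rv1 replicate 1.

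GPAT2, a mitochondrial acyltransferase homologue that binds PIWIL2 in mouse germ cells, was the most abundant of the genes that differed in this way. It was at 0.08, 0 and 0.04 TPM in LNCaP and at 47.0, 56.4 and 40.9 TPM in 22Rv1 with NC-mimic, from 6 and 4388 counts in all, and at 0 to 0.02 TPM and 26.5 to 55.6 TPM with piR-4447944 mimic. Its log2 fold change was 9.56 (standard error 0.61, adjusted p = 5.99e-07, edgeR's quasi-likelihood test) with NC-mimic, and 813-fold as a ratio of pooled counts (exact 95% interval 373 to 2220, counting error only). As LNCaP had so few counts, the ratio was 1590 (439 to 13100) without LNCaP replicate 1 and 524 (241 to 1430) without LNCaP replicate 2. The copies GPAT2P1 and GPAT2P2, between which reads could be divided, had 0 to 2 counts per group. MAEL, which is needed for piRNA production and silencing in the testis, had 0 counts in the 6 LNCaP libraries and was at 1.5, 1.51 and 3.15 TPM in 22Rv1 with NC-mimic and at 1.32, 1.13 and 5.53 TPM with piR-4447944 mimic. Set against 3 counts over the LNCaP libraries, MAEL was 40.0-fold higher in 22Rv1 with NC-mimic and 47.6-fold higher with piR-4447944 mimic. These limits leave out the counting error of the 22Rv1 counts and the spread between libraries. Replicate 3 held 46 of the 108 and 96 of the 140 counts, and without it the limits were 30.4-fold and 22.2-fold. With any 1 library left out the limits were 25.8-fold to 48.6-fold and 22.2-fold to 64.2-fold, with 26.0-fold and 25.8-fold without LNCaP NC-mimic replicates 1 and 2, and 31.6-fold and 30.6-fold without LNCaP piR-4447944 mimic replicates 2 and 3. MAEL was still called without replicate 3 (adjusted p = 0.000106 and 0.000223, edgeR's quasi-likelihood test).

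Of the factors of the nuclear branch, TEX15 and SPOCD1 were higher in 22Rv1 in both arms. TEX15, which works with PIWIL4 in transposon methylation in mice, was at 0.08, 0.15 and 0.16 TPM in LNCaP and at 3.03, 2.74 and 5.01 TPM in 22Rv1 with NC-mimic, with a log2 fold change of 4.70 (standard error 0.35, adjusted p = 2.06e-05, edgeR's quasi-likelihood test). SPOCD1, of the same silencing step, was at 0.04 to 0.44 TPM in LNCaP and at 0.91, 0.46 and 3.42 TPM in 22Rv1 with NC-mimic. These came from 1, 6 and 2 counts and from 17, 17 and 79, the last in replicate 3. The log2 fold change of SPOCD1 was 4 (standard error 1.07, adjusted p = 0.0105, same test), with 2.46 (adjusted p = 0.0121) without 22Rv1 replicate 3 and 4.87 without LNCaP replicate 2. In the piR-4447944 mimic arm it was 5 (standard error 1.22, adjusted p = 0.00762), with 3.85 (adjusted p = 0.0014) without 22Rv1 replicate 3. The DNA methyltransferases DNMT3A and DNMT3B, which all cells can use, had means of 20.5 to 26.2 TPM and 3.46 to 5.80 TPM over the 4 groups.

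ASZ1, a germ cell scaffold on mitochondria, went the other way. It was at 2.30, 1.78 and 2.13 TPM in LNCaP and at 0.49, 0.31 and 0.34 TPM in 22Rv1 with NC-mimic, with a log2 fold change of -2.28 (standard error 0.40, adjusted p = 0.00169, edgeR's quasi-likelihood test). With piR-4447944 mimic it was at 1.19 to 2.51 TPM in LNCaP and at 0 to 0.46 TPM in 22Rv1, a log2 fold change of -3.88 (standard error 0.88, adjusted p = 0.00839), and of -5.30 without 22Rv1 replicate 1. MYBL1, the transcription factor that switches on piRNA genes in the mouse testis, was at 2.25, 2.53 and 2.13 TPM in LNCaP and at 5.70, 3.97 and 3.39 TPM in 22Rv1 with NC-mimic (log2 fold change 1.17, standard error 0.24, adjusted p = 0.00356, same test). With piR-4447944 mimic it was at 1.96 to 2.67 TPM in LNCaP and at 4.86, 4.6 and 1.21 TPM in 22Rv1, where the lowest was replicate 3, and the log2 fold change was 0.93 (standard error 0.52, adjusted p = 0.176), or 1.35 (adjusted p = 7.37e-05) without that library. SND1, AKAP1, PRMT5 and WDR77, which have roles outside the germline, had means of 29.0 to 126 TPM over the groups.

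Of the 32 genes, 9 (28.1%) had a mean of at least 1 TPM in LNCaP with either mimic and 14 (43.8%) in 22Rv1 with either mimic. Of all genes listed, 25.7% to 25.8% reached that level in LNCaP and 26.9% to 27.4% in 22Rv1, so that the share in LNCaP was near that of all genes. With NC-mimic, 10 of the 32 were listed at 0 in all 3 libraries in LNCaP and 10 in 22Rv1, beside 33587 and 34587 of all 60660 genes.

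**Figure D3:**
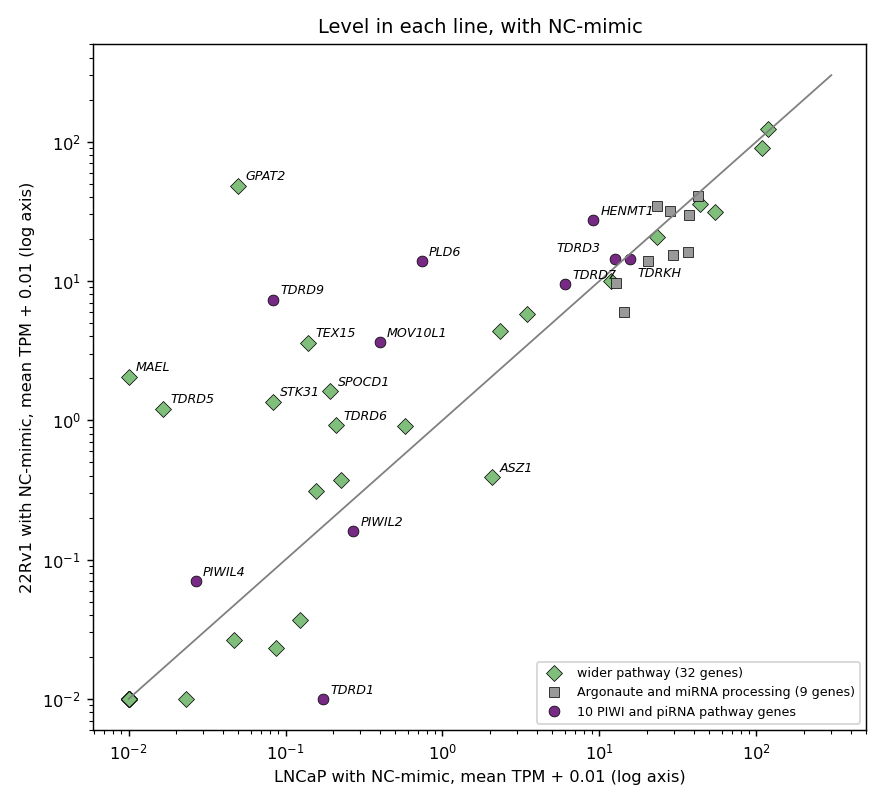
Mean TPM + 0.01 of 3 libraries with NC-mimic in LNCaP (x axis) and 22Rv1 (y axis), both on log axes, for the 10 genes, 32 other genes of the pathway and 9 genes of Argonaute proteins and miRNA processing, with a line at equal levels. TDRD9, PLD6 and MOV10L1 lie with GPAT2, MAEL, TEX15 and TDRD5 above the line, and TDRD1 and ASZ1 lie below it. The Argonaute and miRNA processing genes lie closer to it than these. They run from AGO3 (14.3 TPM in LNCaP and 5.94 in 22Rv1) and AGO2 (36.4 and 16.0) below it to XPO5 (23.4 and 34.3) above it.

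Germ cell markers moved with these genes in part. Their summed TPM was 1.9 to 4.13 in LNCaP and 8.06 to 9.43 in 22Rv1 with NC-mimic, and 2.63 to 4.0 and 7.95 to 12.7 with piR-4447944 mimic. Of the 10 markers, 3 were tested with NC-mimic and all 3 were higher in 22Rv1, SYCP3, BOLL and ACRV1, beside 30.9% of all genes tested, and with piR-4447944 mimic 1 of 2 was higher, SYCP3. BOLL had 0 LNCaP libraries at the level the filter asks for and could be called only as higher, and ACRV1 lost its call without LNCaP or 22Rv1 replicate 1 or 2. SYCP3, a protein of the meiotic chromosome axis, was at 0.96 to 1.68 TPM in LNCaP and at 3.9 to 6.11 TPM in 22Rv1 with NC-mimic. The summed TPM of the fibroblast markers was 27.1 to 45.8 in LNCaP and 7.81 to 27.9 in 22Rv1, that of the leukocyte markers 1.5 to 6.02 and 1.39 to 10.3, and that of the endothelial markers 0.79 to 1.89 and 0 to 0.08. The endothelial marker CDH5 was listed at 0 in every library and the leukocyte marker PTPRC in all 6 libraries of LNCaP. The part of any of these in the result was not tested.

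The comparison of piR-4447944 mimic with NC-mimic asked whether the mimic moved the pathway, and no member passed the test. In LNCaP, 6 of the 10 genes were tested and 0 were called, as were 0% of the 16244 genes tested, by edgeR's quasi-likelihood test with an adjusted p under 0.05, while 433 of these genes had an unadjusted p under 0.05. By the DEG rule of the study, which takes genes with p under 0.05 before adjustment and a log2 fold change beyond 0.2 in size, 2.22% of the genes were called and 0 of the 6. DESeq2's Wald test called 2 genes and limma on log2(TPM + 1) called 1, none of them a member. The intervals were narrowest for the genes of many counts. TDRKH had a log2 fold change of 0.00 (95% interval -0.20 to 0.20), TDRD3 of -0.11 (-0.34 to 0.11), TDRD7 of 0.02 (-0.29 to 0.32) and HENMT1 of -0.08 (-0.46 to 0.31), so that changes larger than these bounds lie outside the intervals. PLD6 had -0.12 (-1 to 0.76) and PIWIL2 -0.41 (-1.53 to 0.70), intervals in which a small change was not detectable at this depth.

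In 22Rv1, 7 of the 10 genes were tested and 0 were called, as were 0% of 16898 genes, by the same test, while 250 genes had an unadjusted p under 0.05. By the rule of the study, 1.48% of the genes were called and 0 of the 7. DESeq2's Wald test called 1 gene and limma on log2(TPM + 1) called 2, none of them a member. TDRD9 was the nearest to the threshold, with a log2 fold change of 0.38 (95% interval -0.03 to 0.80, unadjusted p = 0.0656, adjusted p = 0.999 in edgeR's quasi-likelihood test). Its groups overlapped by TPM (p = 0.2, exact two-sided permutation test). By CPM they did not, at 18.8 to 22.0 with NC-mimic and 23.0 to 31.0 with piR-4447944 mimic. There the same permutation test gave p = 0.1, the smallest the design allows. MOV10L1 had 0.64 (95% interval -0.71 to 1.99), which became -0.29 without piR-4447944 mimic replicate 3, the library at 12.4 TPM. HENMT1 had -0.08 (-0.50 to 0.34), PLD6 0.07 (-0.75 to 0.89), TDRD3 -0.12 (-0.55 to 0.32), TDRKH -0.11 (-0.63 to 0.40) and TDRD7 -0.27 (-0.80 to 0.27). The intervals of TDRKH, TDRD3, TDRD7 and HENMT1 were wider than in LNCaP and that of PLD6 was not. The biological coefficient of variation over all genes was 0.0964 in LNCaP and 0.343 in 22Rv1.

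**Figure D4:**
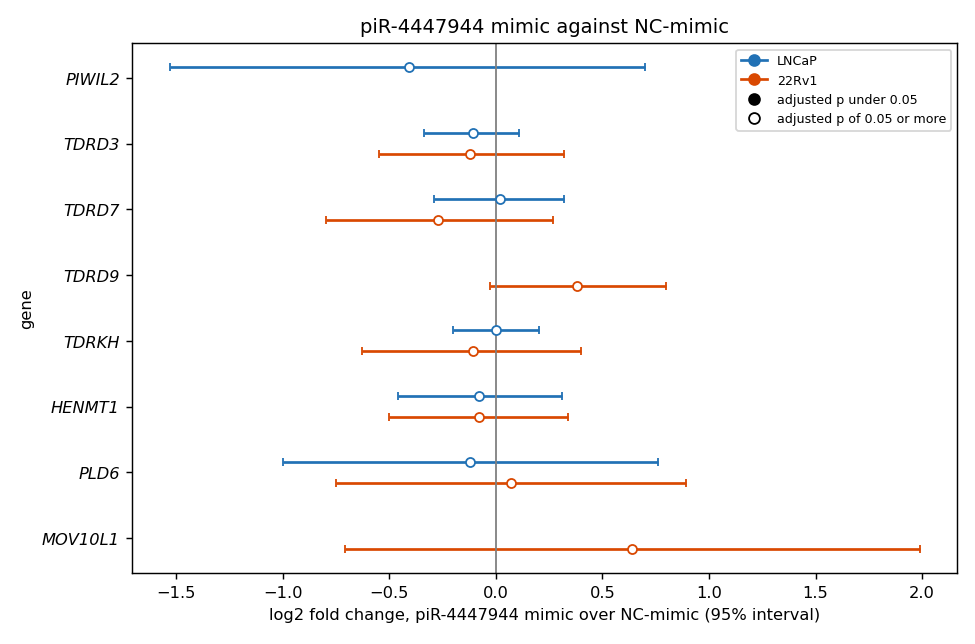
Log2 fold change of piR-4447944 mimic over NC-mimic with its 95% interval (x axis) for the genes (y axis) that passed the low-count filter in LNCaP and in 22Rv1, where filled points would have an adjusted p under 0.05. There are 0 filled points, and each of the intervals spans 0.

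Whether the mimic acted differently in the 2 lines, and what it did on average over both, was tested in fits of all 12 libraries, in which 8 of the 10 genes passed the filter. For the difference, 0 of 8 were called and 0% of 18720 genes, with 610 genes at an unadjusted p under 0.05. For the mean effect, 0 of 8 were called and 0% of 18720 genes, with 340 genes at an unadjusted p under 0.05. DESeq2's Wald test called 3 genes for the difference, none of them a member. PIWIL2 had the difference farthest from 0, at 1.79 (95% interval -0.68 to 4.25, adjusted p = 1 in edgeR's quasi-likelihood test), and at 1.04 without both replicate 3 libraries of 22Rv1. Its mean effect was 0.39 (95% interval -0.88 to 1.65). The 32 other pathway genes gave 0 calls in any of these comparisons, with 12 of them tested in LNCaP and 16 in 22Rv1.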

How the data were processed

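The authors aligned the mRNA reads to hg38 with STAR 2.7.1a and estimated counts with RSEM 1.3.0, per the labels. The deposited expected counts are not normalized and divide reads that match several genes. The deposited TPM are scaled by effective length and hold no depth. Trimming, strand and the annotation release are not given in the sources used here. The 10 genes and all gene lists were chosen with earlier results of these data known. All 10 genes are named, and of the wider list those with a mean of at least 1 TPM in a group or an adjusted p under 0.05 between the lines.

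Expected counts, 12161091 to 22179601 per library, were rounded. The test was the quasi-likelihood test of edgeR 4.0.16 in R 4.3.3, after filterByExpr and TMM scaling, in the 6 libraries of each comparison, or in all 12 for the fits over both lines. Adjusted p-values are Benjamini-Hochberg values across every gene tested in a fit. Standard errors are Wald errors from the fitted means. Intervals on pooled counts are exact 95% intervals, and a group without counts was set at 3 counts. Gene positions and shared exons come from GENCODE on hg38. Scripts were tested on simulated counts. Samples were grouped by their labels.

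In 22Rv1 the correlations of deviations from the group means were 0.198, 0.167 and 0.355 between libraries of the same replicate number, 1 to 3. Unmatched numbers gave 0.191 (NC-mimic 1 with piR-4447944 mimic 2) and 0.117 (2 with 1). Pairs of replicate 3 with 1 or 2 gave -0.277 to -0.199. The values thus set replicate 3 apart and do not show that replicates 1 and 2 were paired. In LNCaP libraries of the same number gave 0.021, 0.005 and 0.189. Alternatives were DESeq2 size factors, other filters, DESeq2 1.42.0, a replicate block, limma 3.58.1 on log2(TPM + 1) and log2(TPM + 0.1) for genes with at least 1 TPM in 3 libraries or for all genes, all 12 libraries in one fit, and leaving out libraries. Leaving out each library for the other genes of the pathway, the germ cell markers and the pooled counts was added after the data were seen.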

Additional observations from a re-analysis of the deposited data

How the results depend on the processing

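TDRD9, PLD6, HENMT1 and MOV10L1 were higher in 22Rv1 at an adjusted p under 0.05 in every alternative in which they were tested, in both arms, and 0 of the 10 genes were called in any alternative for the mimic. With NC-mimic, TDRD7 lost its call on log2(TPM + 1) without a filter (0.57, adjusted p = 0.0655 by limma), and with piR-4447944 mimic it gained one without 22Rv1 replicate 3 (0.60). The replicate block changed no call of a member. With it, 9713 genes were called between the lines in the NC-mimic arm and 8276 in the other. It left the mimic comparisons in 22Rv1 and in LNCaP at 0 genes. The number of members called lower in 22Rv1 rose from 0 to 1, TDRD1 without a filter in either arm, and PIWIL2 without 22Rv1 NC-mimic replicate 3 or both replicate 3 libraries (leave-one-out range 0 to 1). PIWIL2 passed the filter there through LNCaP libraries alone and could be called only as lower in 22Rv1. With at least 10 counts in every library, 2 members were called higher with piR-4447944 mimic, as fewer genes were tested. Genes called for the mimic in LNCaP numbered 46 without a filter, 2 with DESeq2's Wald test, 1 in each limma fit, and 0 to 2 with 1 library left out. In 22Rv1 they numbered 1 with DESeq2, 2 on log2(TPM + 1), 3 on log2(TPM + 0.1), and 4 without both replicate 3 libraries. For the difference between the lines they numbered 3 with DESeq2, 2 on log2(TPM + 1), 1 on log2(TPM + 0.1), 7 without a filter on log2(TPM + 1), and 0 to 1 with 1 library left out. The causes of these changes were not tested.

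The sign turned for genes that were not called. Between the lines with NC-mimic, TDRKH was at -0.02 without a filter, -0.13 on log2(TPM + 1) with or without a filter, -0.14 on log2(TPM + 0.1), and -0.15 without 22Rv1 replicate 3 (-0.15 to 0.19 with 1 library left out). With piR-4447944 mimic, TDRKH was at 0.02 on the TPM scales, and PIWIL2 at 0.09, 0.07 and 0.38 without LNCaP replicate 3, 22Rv1 replicate 1 and 22Rv1 replicate 2 (-1.05 to 0.38 with 1 library left out). For the mimic in LNCaP, PIWIL2 was at 0.01 on log2(TPM + 1), TDRD7 (-0.07 to 0.15 with 1 library left out) at -0.03, -0.06 and -0.07 without NC-mimic replicates 2 and 3 and piR-4447944 mimic replicate 1, HENMT1 at 0.04 without the last, and PLD6 at 0.13 without piR-4447944 mimic replicate 2 (-0.51 to 0.13). For the mimic in 22Rv1, TDRKH (-0.28 to 0.07 with 1 library left out) was at 0.06 on the TPM scales, 0.07 without NC-mimic replicate 3 and 0.12 without both replicate 3 libraries, PLD6 (-0.20 to 0.41) at -0.20, -0.11 and -0.02 without NC-mimic replicate 3, piR-4447944 mimic replicate 1 and both replicate 3 libraries, HENMT1 (-0.17 to 0.05) at 0.05 and 0.11 and MOV10L1 (-0.29 to 0.94) at -0.29 and -0.09 without piR-4447944 mimic replicate 3 and both. For the difference, TDRD9 (-2.77 to 0.22) was at 0.16 on log2(TPM + 1) and 0.22 without LNCaP piR-4447944 mimic replicate 2, and MOV10L1 (-0.34 to 1.21) at -0.34 and -0.15 without 22Rv1 piR-4447944 mimic replicate 3 and both. For the mean effect, PIWIL2 (-0.11 to 0.69) was at -0.11 and -0.09 and MOV10L1 (-0.14 to 0.56) at -0.14 and -0.04 without the same libraries. Depth limits PIWIL2, PIWIL4 and TDRD1, which had at most 48, 10 and 27 counts in a group.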
